A study of Mus musculus with 4 samples.

Results

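The genes described here encode the enzymes of xenobiotic metabolism, together with the reductase that serves them and the receptors that induce them, in the colonic epithelium of DSS-treated mice. They were taken by gene symbol and numbered 74 of the 16015 genes listed. Of these, 27 were cytochrome P450 genes (Cyp1 to Cyp4), 11 carboxylesterases (Ces1 and Ces2), 7 UDP-glucuronosyltransferases (Ugt1a and Ugt2b), 19 glutathione S-transferases and 7 sulfotransferases, and the other 3 were *Por*, *Ahr* and *Nr1i2*. *Nr1i3*, the constitutive androstane receptor, was not analysed here.

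Xenobiotic metabolism runs in steps. Cytochrome P450 enzymes of the endoplasmic reticulum, which take their electrons from the reductase encoded by *Por*, oxidize a foreign compound, and carboxylesterases hydrolyse esters and amides. Glucuronosyltransferases, sulfotransferases and glutathione S-transferases then attach a polar group so that the product can be exported. In the gut this system meets dietary compounds, drugs, bile acids, steroids and bacterial products, and the aryl hydrocarbon receptor AHR and the pregnane X receptor (*Nr1i2*) switch many of its genes on when they bind a ligand.

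Bulk RNA sequencing compared 2 mice labelled WT with 2 mice labelled *Bmal1* cKO, all on day 7 of a colitis model in which 3% dextran sulfate sodium (DSS), a polysaccharide that injures the colonic epithelium, was given in the drinking water for 5 days and plain water for 2 days. Per the study's methods the *Bmal1* cKO mice carried Villin-CreERT2 and *Bmal1* fl/fl, the WT mice were *Bmal1* fl/fl littermates, and all were C57BL/6 and 2 to 4 months old. Tamoxifen was injected on 5 consecutive days, and the Villin promoter drives the recombinase in the epithelium of the gut and not in its stromal or immune cells, which keep *Bmal1*. Colonic crypt epithelium was scraped off and its RNA taken in bulk, which means that fewer cells of a type and less RNA per cell cannot be told apart. The question put to the data was which enzyme classes differed between the genotypes after DSS.

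Each value below is a normalized count, that is, the reads of a gene scaled by its library's size factor, and the libraries held between 10312791 and 14156639 reads on listed genes. The targeted gene *Bmal1*, listed as *Arntl*, had 358 and 342 normalized counts in WT and 341 and 289 in *Bmal1* cKO (log2 fold change -0.16, standard error 0.14, limma adjusted p = 0.389), so the targeted gene did not pass the test and the groups are those of the labels. The 8 epithelial markers summed to 137909 and 157344 in WT and 119834 and 128295 in *Bmal1* cKO. Of these, 2 were lower (*Krt18* and *Lgals4*), with a median log2 fold change of -0.39. After a correction for GC content and length, described below, 0 were lower and 3 higher (*Krt8*, *Krt19* and *Cldn7*), with a median of 0.16. Of 11 absorptive colonocyte markers 3 were higher and 3 lower (3 and 1 after the correction), among them *Slc26a3* (2.13) and *Car4* (-1.97). Leukocyte markers were lower in *Bmal1* cKO for 10 of 14 genes (8 after the correction), with sums of 24684 and 31495 in WT against 5686 and 5250. Fibroblast, muscle and endothelium markers were lower for 10 of 11 genes (10 after the correction), with sums of 15526 and 3536 in WT against 461 and 512. Goblet cell markers were lower for 6 of 7 genes (4 after the correction), and their part in the results below was not tested. Of 3 hepatocyte genes listed, *Alb* stayed between 0.845 and 16.2 and *Ttr* between 83.6 and 153. *Apob*, at 899 to 4355, was higher (1.36, limma adjusted p = 0.0414) but was not called after the correction (0.59, adjusted p = 0.323). Of 7 small intestinal genes listed, *Anpep* (-3.05) and *Rbp2* (-3.40) were lower, *Fabp2* reached 657 and the sucrase gene *Sis* no more than 16.1. Fold changes were also related to base composition across all genes (Spearman's rho of log2 fold change with the GC content of the exons -0.61 over 13975 genes, which share the 4 libraries), and every called member is therefore given before and after a correction for GC content and length.

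Among the 66 members tested, 17 were higher and 6 were lower in *Bmal1* cKO at a limma adjusted p under 0.05, while 29.0% of all genes tested were called higher and 27.7% lower. The share called higher was 25.8%, near the background, and the share called lower was 9.09%. The median log2 fold change of the members was 0.33, beside -0.04 over all 13983 genes tested, and was 0.09 without *Bmal1* cKO replicate 2, 0.53 without *Bmal1* cKO replicate 1 and 0.10 with library-total scaling. By class, all 7 UGT genes had a positive log2 fold change (median 1.84, 4 called higher). So did 5 of the 6 SULT genes tested (class median 1.61, 4 called higher and 1 lower). Positive values were found in 6828 of all 13983 genes, and the lower quartile was 0.53 in the decile of lowest GC content. *Ugt1a1*, *Ugt2b36* and *Ugt2b5* passed the filter only through *Bmal1* cKO, where they were higher. The UGT median is the value of *Ugt2b5* before and after the correction. The medians of the CYP genes (0.07, 4 higher and 3 lower of 22), the CES genes (0.09, 1 higher and none lower of 10) and the GST genes (0.21, 3 higher and 1 lower of 18) lay close to 0. After the correction 11 members were higher and 5 lower, with 16.9% of all genes called higher and 18.0% lower, and the class medians were 0.94 for UGT, 0.93 for SULT, 0.53 for GST, 0.02 for CYP and -0.00 for CES. With library-total scaling the split was 14 higher and 12 lower. With only 2 mice per group, the counts were 8 higher and 3 lower without *Bmal1* cKO replicate 2 and 12 higher and 3 lower without *Bmal1* cKO replicate 1, and 13 of the 23 calls were lost in at least 1 fit that left out a library, and 7 held under every alternative: *Cyp4f18*, *Cyp4f40*, *Gstt3*, *Por*, *Sult1d1*, *Ugt1a7c* and *Ugt2b35*.

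**Figure D1:**
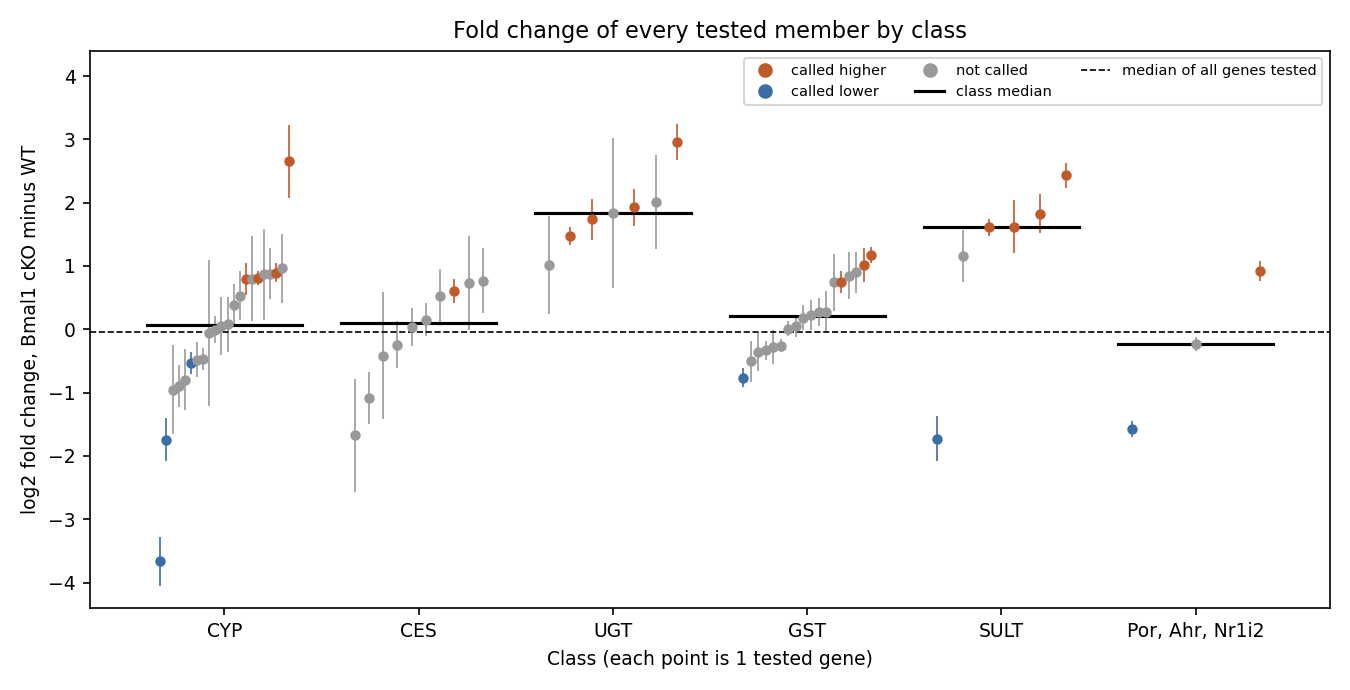
Log2 fold change (*Bmal1* cKO minus WT, y axis) of each of the 66 tested members by class (x axis), with bars of 1 standard error. Short lines are class medians and the dashed line is the median of all genes tested (-0.04). The UGT and SULT medians stand at 1.84 and 1.61 while those of CYP, CES and GST lie between 0.07 and 0.21. The UGT median is the value of *Ugt2b5*, which passed the filter only through *Bmal1* cKO.

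Summed over each class, UGT transcripts numbered 2626 and 4046 normalized counts in WT and 10511 and 13686 in *Bmal1* cKO, a ratio of the means of 3.63. The SULT sum was 2122 and 2621 in WT and 7733 and 8994 in *Bmal1* cKO, a ratio of 3.53. In both classes the groups did not overlap. The GST sum was nearly level, at 9784 ± 134 in WT and 10516 ± 367 in *Bmal1* cKO (mean ± SD, n = 2), and the CES sum was 5926 ± 1801 and 5808 ± 1212. The CYP sum was 12124 ± 4987 in WT and 14506 ± 2617 in *Bmal1* cKO, with overlapping groups. A few genes made up most of each sum, since *Ugt2b34* gave 76.8% of the UGT sum, *Sult1b1* 51.4% of the SULT sum and *Gsto1* 42.7% of the GST sum.

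Glucuronidation genes were led by the Ugt2b group, whose enzymes conjugate steroids, bile acids and phenols. *Ugt2b34* (chr5:86889767-86906937, GRCm38) was the most abundant UGT gene per length, at 588 normalized counts per kilobase of exon in WT and 2161 in *Bmal1* cKO. It had 1828 and 3241 normalized counts in WT and 8167 and 10467 in *Bmal1* cKO, so both *Bmal1* cKO libraries were over every WT library. Its log2 fold change was 1.92 (standard error 0.29, limma adjusted p = 0.00349), but 0.76 after the correction (adjusted p = 0.104), and the call was also lost without *Bmal1* cKO replicate 2 (1.75, adjusted p = 0.0528). *Ugt2b35* had the highest fold change of the class, with 79.4 and 117 normalized counts in WT and 608 and 934 in *Bmal1* cKO, and the groups were far apart. It rose by 2.95 on the log2 scale (standard error 0.29, limma adjusted p = 0.000964) and by 1.85 after the correction (adjusted p = 0.00932). *Ugt2b36*, with 6.76 and 5.93 in WT and 8.23 and 23.0 in *Bmal1* cKO (log2 fold change 1.02), and *Ugt2b5* (1.84, limma adjusted p = 0.231, and 0.30 without *Bmal1* cKO replicate 2) were scarce and not called. *Ugt2b5* had 3.38, 11.9, 8.23 and 77.0 normalized counts in WT 1, WT 2, *Bmal1* cKO 1 and *Bmal1* cKO 2, and its high value rested on 1 library. A further limit is that 41.7% of the 50-base words of its transcripts also occur in other genes.

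The Ugt1a genes share their last exons and differ in the first, so that reads on the shared part cannot be assigned to 1 of them. *Ugt1a7c* (chr1:88095062-88220002) had 681 and 639 normalized counts in WT and 1609 and 2083 in *Bmal1* cKO. These groups lay well apart, and the rise of 1.47 on the log2 scale (standard error 0.15, limma adjusted p = 0.00102) was 0.85 after the correction (adjusted p = 0.0108). *Ugt1a6a*, whose enzyme conjugates planar phenols and which is a known AHR target, had 24.5 and 27.1 normalized counts in WT and 95.7 and 81.1 in *Bmal1* cKO (log2 fold change 1.73, standard error 0.32, limma adjusted p = 0.00709). That call was lost after the correction (1.01, adjusted p = 0.0582), without *Bmal1* cKO replicate 1 (1.62) and without *Bmal1* cKO replicate 2 (1.85). *Ugt1a1*, the enzyme that conjugates bilirubin, was scarce, at 2.53 and 5.08 in WT and 15.4 and 20.3 in *Bmal1* cKO. Its log2 fold change of 2.01 (standard error 0.74) did not pass limma's test (adjusted p = 0.0638), although it did with edgeR on the reads (adjusted p = 0.0434), with no filter on low values (adjusted p = 0.0456) and without WT replicate 2 (2.40, adjusted p = 0.0348). Because the transcripts of these 3 genes have 52.1% to 58.2% of their words in common with other genes, their separate values are uncertain.

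**Figure D2:**
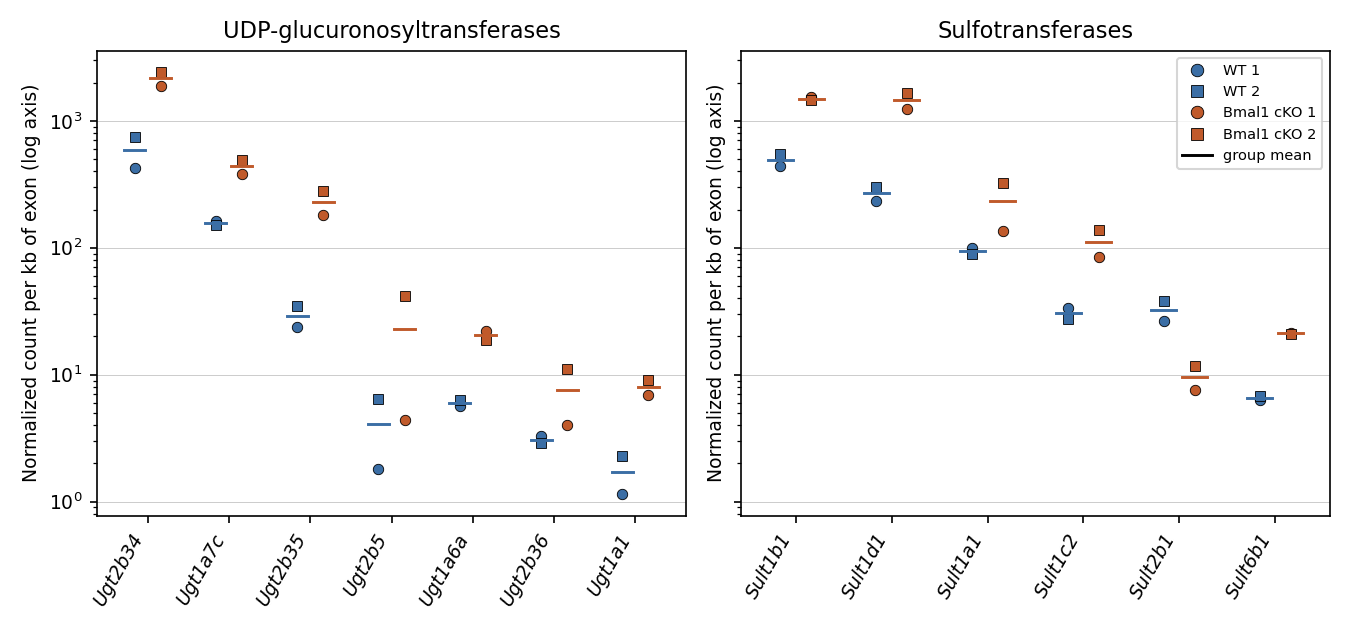
Normalized count per kilobase of exon (log y axis) of the 7 UGT and 6 tested SULT genes (x axis) in each library. Circles and squares are replicates 1 and 2, and lines are group means. *Ugt2b5* overlaps between the groups and *Sult2b1* is lower in *Bmal1* cKO. *Ugt2b36* rests on 8 and 7 reads in WT and 8 and 17 in *Bmal1* cKO.

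Sulfotransferases transfer a sulfate group to phenols, catecholamines, thyroid hormones and steroids. *Sult1b1* (chr5:87513339-87538195), which takes phenols and thyroid hormone, was the most abundant, with 1217 and 1520 normalized counts in WT and 4255 and 4047 in *Bmal1* cKO. The groups lay far apart compared with the spread inside them, and the log2 fold change was 1.61 (standard error 0.13, limma adjusted p = 0.000658). After the correction it was 0.38 (adjusted p = 0.0826) and the call was lost. *Sult1d1* (chr5:87554645-87569027), which sulfates catecholamines and phenols, had 572 and 745 normalized counts in WT and 3029 and 4105 in *Bmal1* cKO. Its groups did not overlap in any way, and its exons had the lowest GC content of all members, 32.9%. It rose by 2.43 on the log2 scale (standard error 0.20, limma adjusted p = 0.000656) and by 0.95 after the correction (adjusted p = 0.0211).

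The other sulfotransferases were expressed at lower levels. *Sult1c2* had 61.7 and 50.8 normalized counts in WT and 157 and 255 in *Bmal1* cKO (log2 fold change 1.82, standard error 0.31, limma adjusted p = 0.00535, and 1.22 after the correction, adjusted p = 0.0311). Its call was lost when the correction was joined with a replicate block, a term for the mouse number (1.22, limma adjusted p = 0.0501). *Sult6b1* had 13.5 and 14.4 in WT and 45.3 and 44.6 in *Bmal1* cKO, and its call (1.62, limma adjusted p = 0.0221) was lost after the correction (0.92), without *Bmal1* cKO replicate 1 (1.61), without *Bmal1* cKO replicate 2 (1.63) and without WT replicate 1 (1.58). Both *Bmal1* cKO libraries were over both WT libraries for these genes. *Sult1a1*, the main phenol sulfotransferase, had 150 and 135 normalized counts in WT and 206 and 492 in *Bmal1* cKO. Its log2 fold change of 1.16 missed the threshold (standard error 0.41, limma adjusted p = 0.0581), as it did after the correction (1.04, adjusted p = 0.0963). Among the other fits, it passed with DESeq2 on the reads (1.30, adjusted p = 0.0129) and without *Bmal1* cKO replicate 1 (1.79, adjusted p = 0.0169), and it stood at 0.53 without *Bmal1* cKO replicate 2. *Sult2b1*, which sulfates cholesterol, went the other way, with 104 and 150 normalized counts in WT and 29.8 and 46.0 in *Bmal1* cKO. It was lower in both *Bmal1* cKO libraries and fell by 1.73 on the log2 scale (standard error 0.36, limma adjusted p = 0.0105) and by 1.28 after the correction (adjusted p = 0.0443), but the call was lost without *Bmal1* cKO replicate 1 (-1.42) and without WT replicate 2 (-1.46).

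Of the 7 UGT and 7 SULT genes, 6 lie in one stretch of chromosome 5 (chr5:86889767-87569027), in the order *Ugt2b34*, *Ugt2b35*, *Ugt2b36*, *Ugt2b5*, *Sult1b1* and *Sult1d1*. All 6 were tested, 4 were called higher and none lower, against 29.0% and 27.7% of all genes and against 71.2% called higher in the decile of lowest GC content, to which all 6 belong, and the median log2 fold change was 1.88. Of 7 other genes tested within 1 Mb on either side, 3 were higher and 2 lower before the correction (0 and 3 after it). *Jchain* and *Rufy3* were not called, *Stap1* (-2.26, limma adjusted p = 0.0228) and *Utp3* (-0.62, adjusted p = 0.0187) were lower, and the 3 higher ones were *Ythdc1*, an RNA methylation reader (1.19, limma adjusted p = 0.000612), *Uba6*, a ubiquitin activating enzyme (1.53, adjusted p = 0.000533), and *Cenpc1*, a centromere protein (0.81, adjusted p = 0.00908). The 3 higher ones also had low GC content, between 37.4% and 40.5%, and after the correction stood at -0.08, 0.23 and -0.24, none of them called. *Sult1d1* and *Ugt2b35* in the same stretch were still called higher.

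Start regions are shown for the 4 neighbouring genes called higher before the correction, with that of *Por*, which was called lower, beside them. All 6 genes of the stretch had a GC content between 32.9% and 39.9%, and *Ugt2b34* (0.76, limma adjusted p = 0.104) and *Sult1b1* (0.38, adjusted p = 0.0826) were not called after the correction. Each runs from 250 bases before to 50 bases after the RefSeq transcription start (GRCm38.p6), 5′ to 3′ on the strand of the gene, and capitals mark the matches to 4 motifs searched on both strands: the AHR core GCGTG, the E-box CACGTG, the HNF4-type site CAAAG and the antioxidant element TGACNNNGC. GCGTG and CACGTG have the letters CGTG in common. The regions are chr5:86906888-86907187 (minus strand) for *Ugt2b34*, chr5:87000610-87000909 (plus) for *Ugt2b35*, chr5:87538146-87538445 (minus) for the upstream start of *Sult1b1*, chr5:87568957-87569256 (minus) for *Sult1d1* and chr5:135688895-135689194 (plus) for *Por*.
Ugt2b34: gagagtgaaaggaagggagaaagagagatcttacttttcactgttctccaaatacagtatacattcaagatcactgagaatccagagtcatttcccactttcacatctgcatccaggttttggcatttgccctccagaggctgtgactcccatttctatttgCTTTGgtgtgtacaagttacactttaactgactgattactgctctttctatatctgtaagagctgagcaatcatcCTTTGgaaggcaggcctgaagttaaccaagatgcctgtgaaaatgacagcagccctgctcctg
Ugt2b35: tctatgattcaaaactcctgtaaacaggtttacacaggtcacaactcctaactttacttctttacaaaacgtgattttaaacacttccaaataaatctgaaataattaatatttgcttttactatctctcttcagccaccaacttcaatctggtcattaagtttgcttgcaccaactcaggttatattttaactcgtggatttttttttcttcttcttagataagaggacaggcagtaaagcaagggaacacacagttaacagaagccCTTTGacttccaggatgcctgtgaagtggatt
Sult1b1: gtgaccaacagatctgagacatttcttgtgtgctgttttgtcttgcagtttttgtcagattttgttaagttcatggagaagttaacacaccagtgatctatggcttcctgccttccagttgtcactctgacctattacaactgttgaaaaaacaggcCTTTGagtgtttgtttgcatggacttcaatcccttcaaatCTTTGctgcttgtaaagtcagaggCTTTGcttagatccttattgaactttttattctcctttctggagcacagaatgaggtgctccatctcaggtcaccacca
Sult1d1: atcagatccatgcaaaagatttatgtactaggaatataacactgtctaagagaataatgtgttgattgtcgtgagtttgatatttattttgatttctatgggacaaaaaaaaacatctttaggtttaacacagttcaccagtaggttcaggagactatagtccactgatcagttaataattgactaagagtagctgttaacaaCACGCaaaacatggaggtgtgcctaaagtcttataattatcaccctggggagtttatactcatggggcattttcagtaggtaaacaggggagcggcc
Por: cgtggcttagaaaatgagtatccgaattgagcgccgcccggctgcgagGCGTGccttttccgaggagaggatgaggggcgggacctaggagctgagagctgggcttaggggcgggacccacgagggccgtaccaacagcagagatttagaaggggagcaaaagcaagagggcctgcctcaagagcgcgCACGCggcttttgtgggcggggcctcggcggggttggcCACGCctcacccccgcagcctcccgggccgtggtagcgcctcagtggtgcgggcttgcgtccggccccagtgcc

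In these letters the *Ugt2b34* region held 2 CAAAG matches, *Ugt2b35* 1 and the upstream *Sult1b1* region 3, while the *Sult1d1* region held 1 GCGTG match, at positions -47 to -43 from the start, and the *Por* region 3. None of the 5 held CACGTG or TGACNNNGC. Over all members, 62 had a start region in the RefSeq table, 75 regions in all. CAAAG was found in 76.0% of them, beside 53.9% of the 32851 regions of all genes, GCGTG in 24.0% beside 32.4%, CACGTG, the sequence that BMAL1 and its partner CLOCK are known to bind, in 2.67% beside 7.15%, and TGACNNNGC in 9.33% beside 12.4%. Members with CACGTG in the window were *Cyp2j6* and *Cyp4v3*. By call, GCGTG occurred in 3 of 19 regions of members called higher (*Cyp2c68*, *Sult1b1* and *Sult1d1*), in 3 of 5 regions of members called lower (*Por* and *Sult2b1*) and in 11 of 43 regions of members not called. CAAAG occurred in 15 of 19, 4 of 5 and 32 of 43, CACGTG in 1, 0 and 1, and TGACNNNGC in 2, 1 and 4 of the same regions. Such matches describe the letters in these windows and no binding was measured.

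*Por* encodes the cytochrome P450 reductase, the electron donor of all microsomal P450 enzymes. It had 1240 and 1493 normalized counts in WT and 442 and 469 in *Bmal1* cKO, so that the *Bmal1* cKO mean was 0.333 of the WT mean. The groups were far apart and it fell by 1.58 on the log2 scale (standard error 0.13, limma adjusted p = 0.000644). Its exons are rich in GC, at 58.3%, and after the correction it fell by 0.53 (adjusted p = 0.0448). *Ahr*, the receptor for aromatic ligands from diet and bacteria, had 311 and 251 normalized counts in WT and 503 and 562 in *Bmal1* cKO. It was higher in both *Bmal1* cKO libraries by 0.93 on the log2 scale (standard error 0.16, limma adjusted p = 0.00531), but stood at 0.40 after the correction (adjusted p = 0.109), and the call was lost without *Bmal1* cKO replicate 2 (0.85, adjusted p = 0.0557). *Nr1i2* had 599 and 665 normalized counts in WT and 548 and 524 in *Bmal1* cKO and was not called (log2 fold change -0.23, standard error 0.11, limma adjusted p = 0.125, and 0.17 after the correction), although it was called lower with library-total scaling (-0.46, adjusted p = 0.0172).

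Cytochrome P450 genes moved in both directions. *Cyp2c55*, which makes hydroxylated arachidonic acid and is typical of the colon, was the most abundant per length, at 1015 normalized counts per kilobase in WT and 1903 in *Bmal1* cKO. Its libraries overlapped, with 1117 and 2933 normalized counts in WT and 2415 and 5178 in *Bmal1* cKO, and it was not called (log2 fold change 0.97, standard error 0.55, limma adjusted p = 0.179, and 0.23 after the correction), with values from 0.27 without WT replicate 1 to 1.66 without WT replicate 2. Its neighbours *Cyp2c65* and *Cyp2c68* were called higher. *Cyp2c68* had 38.9 and 127 normalized counts in WT and 359 and 560 in *Bmal1* cKO, which do not overlap, for a log2 fold change of 2.65 (standard error 0.57, limma adjusted p = 0.0121) and 1.96 after the correction (adjusted p = 0.0435). This call was lost without *Bmal1* cKO replicate 1 (2.97) and without *Bmal1* cKO replicate 2 (2.33), and the value was 1.81 without WT replicate 1 and 3.49 without WT replicate 2. Of the words of *Cyp2c68*, 43.3% occur in other genes, mostly *Cyp2c40*, so its reads may be shared. *Cyp2c65*, with 20.7% of its words in other genes, had 302 and 501 in WT and 620 and 731 in *Bmal1* cKO (0.79, limma adjusted p = 0.0446). It was at 0.08 after the correction, and the call was also lost without *Bmal1* cKO replicate 1 (0.91), without *Bmal1* cKO replicate 2 (0.67), without WT replicate 1 (0.42), with edgeR (0.74) and with library-total scaling (0.57).

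Among the fatty acid and eicosanoid hydroxylases of the Cyp4f group, *Cyp4f40* (chr17:32658900-32676914) rose and *Cyp4f18* (chr8:71988482-72009626) fell. *Cyp4f40* had 814 and 658 normalized counts in WT and 1470 and 1264 in *Bmal1* cKO, and its log2 fold change of 0.90 (standard error 0.14, limma adjusted p = 0.00454) was 1.26 after the correction (adjusted p = 0.00495). *Cyp4f18*, known as a leukotriene hydroxylase of neutrophils, had 162 and 173 normalized counts in WT and 9.26 and 16.2 in *Bmal1* cKO, from 9 and 12 reads. A stretch of 9.76% of its exons overlaps the antisense gene *Zfp961*, and counting by strand is not stated. It showed the largest change of the members tested and fell by 3.66 on the log2 scale (standard error 0.39, limma adjusted p = 0.00121), and after the correction it fell by 2.87 (adjusted p = 0.00677). The neutrophil genes *S100a9* (-5.01, limma adjusted p = 0.00612) and *S100a8* (-3.75, adjusted p = 0.0133) were lower too. The neutrophil marker *Ly6g* fell from 5801 and 7474 normalized counts to 2918 and 2549 and the myeloid gene *Itgam* from 542 and 845 to 103 and 85.2 in the same libraries, and their part in the result was not tested. *Cyp4f14*, which inactivates leukotriene B4, overlapped between the groups with 339 and 1432 in WT and 964 and 1533 in *Bmal1* cKO. It was not called (0.80, limma adjusted p = 0.341) except without WT replicate 2 (1.84, adjusted p = 0.0289), and without WT replicate 1 its direction turned (-0.24).

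The Cyp2d genes, relatives of the human drug oxidase CYP2D6, had 5 of 6 tested genes negative, beside 7155 of all 13983 genes. Their median log2 fold change was -0.66, and -0.38 after the correction. Of these genes 2 were called lower and 1 after the correction, against 27.7% and 18.0% of all genes. *Cyp2d12* had 455 and 943 normalized counts in WT and 189 and 200 in *Bmal1* cKO, all of the latter below WT, and fell by 1.75 on the log2 scale (standard error 0.34, limma adjusted p = 0.00868) and by 1.73 after the correction (adjusted p = 0.0164). The call was lost without *Bmal1* cKO replicate 1 (-1.71) and without *Bmal1* cKO replicate 2 (-1.79). *Cyp2d34*, the most abundant of the group, had 2279 and 3202 in WT and 1901 and 1837 in *Bmal1* cKO. It was lower by a small amount (-0.53, standard error 0.17, limma adjusted p = 0.0438), and that call was lost after the correction (-0.45) and without *Bmal1* cKO replicate 1 (-0.56), *Bmal1* cKO replicate 2 (-0.51) or WT replicate 2 (-0.29). *Cyp2j6*, an epoxygenase of arachidonic acid, had 549 and 620 normalized counts in WT and 1038 and 1011 in *Bmal1* cKO, which were tight and well apart (0.81, standard error 0.11, limma adjusted p = 0.00239), yet stood at -0.01 after the correction. *Cyp3a13*, from the family with the widest drug range, was not called (0.88, limma adjusted p = 0.113) and stood at 0.05 after the correction. In fits that left out 1 library it ranged from 0.24 to 1.52, the latter without WT replicate 2. *Cyp1b1*, a classical AHR target, stayed between 1.69 and 5.41 normalized counts and was under the filter.

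Carboxylesterases had 1 called gene among 10 tested. *Ces2e*, *Ces2c* and *Ces2a*, which hydrolyse drug and lipid esters, were the most abundant per length, between 346 and 927 normalized counts per kilobase in WT. *Ces2e* had 1656 and 2644 normalized counts in WT and 1980 and 2711 in *Bmal1* cKO, and *Ces2a* 628 and 1005 in WT and 653 and 1021 in *Bmal1* cKO. In both the groups overlapped almost wholly, with log2 fold changes of 0.15 (standard error 0.26, limma adjusted p = 0.648) and 0.04 (standard error 0.30, adjusted p = 0.917). *Ces2c*, with 36.1% of its words in other genes, had 1290 and 2971 in WT and 1561 and 1759 in *Bmal1* cKO and was not called (-0.24, limma adjusted p = 0.607) except without WT replicate 1 (-0.84, adjusted p = 0.0217), while without WT replicate 2 its direction turned (0.36). The gene called was *Ces2g*, with 296 and 245 normalized counts in WT and 362 and 465 in *Bmal1* cKO (0.61, standard error 0.18, limma adjusted p = 0.0365). It did not overlap between the groups, but the call was lost after the correction (0.42), without *Bmal1* cKO replicate 1 (0.79), *Bmal1* cKO replicate 2 (0.43), WT replicate 1 (0.74) or WT replicate 2 (0.47), with DESeq2 (0.61, adjusted p = 0.0507) and with library-total scaling (0.38).

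**Figure D3:**
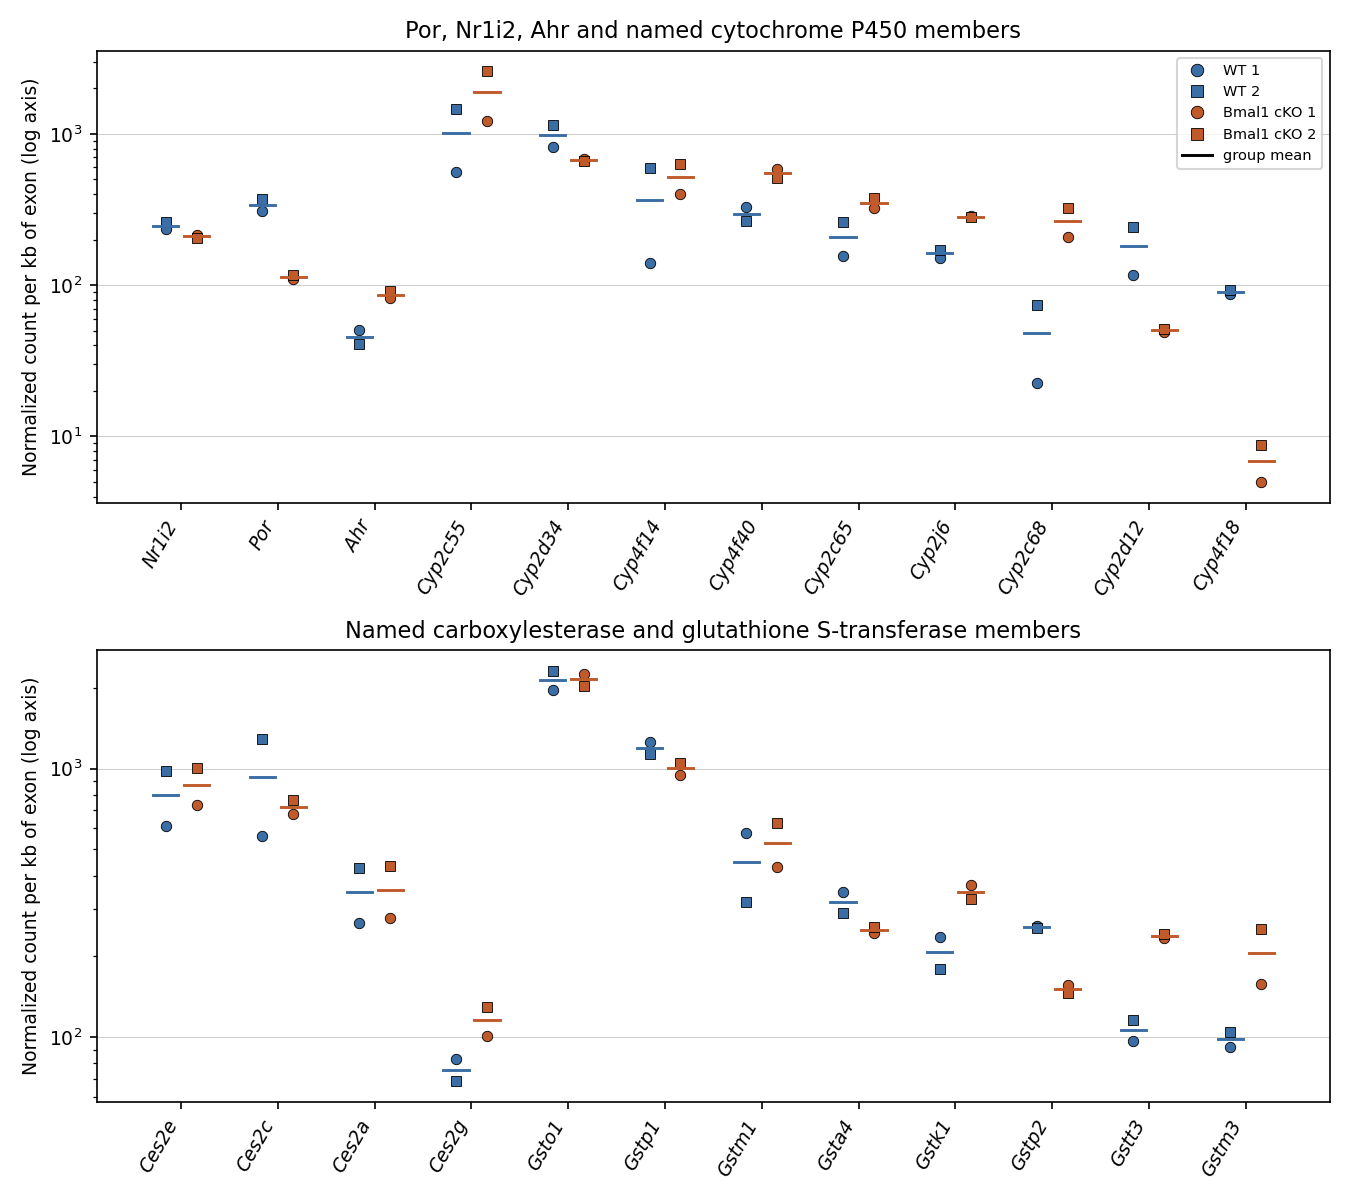
Normalized count per kilobase of exon (log y axes) of *Nr1i2*, *Por*, *Ahr* and the named CYP, CES and GST genes (x axes) in each library. Circles and squares are replicates 1 and 2, and lines are group means. *Por* and *Cyp4f18* are lower in both *Bmal1* cKO libraries, *Cyp4f40*, *Gstt3* and *Ahr* are higher, and *Cyp2c55*, *Cyp4f14*, *Ces2e*, *Ces2a*, *Gsto1* and *Gstm1* overlap.

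Glutathione S-transferases couple glutathione to electrophiles, and their most abundant genes were not called in the comparison. *Gsto1*, an omega-class enzyme that also reduces arsenic compounds, had the highest level per length of all members in WT, at 2139 normalized counts per kilobase, and stood at 2148 in *Bmal1* cKO. It had 3975 and 4680 normalized counts in WT and 4570 and 4123 in *Bmal1* cKO, which overlap (log2 fold change 0.01, standard error 0.12, limma adjusted p = 0.954). *Gstm1* overlapped too, with 850 and 468 in WT and 633 and 922 in *Bmal1* cKO (0.27, limma adjusted p = 0.492), and *Gsta4*, which detoxifies hydroxynonenal, was at 439 and 367 in WT and 311 and 326 in *Bmal1* cKO (-0.33, limma adjusted p = 0.0983) and was called lower with library-total scaling (-0.56, adjusted p = 0.0256). *Gstp1* had 1951 and 1753 normalized counts in WT and 1470 and 1630 in *Bmal1* cKO, and its direction turned with the processing, from -0.26 (limma adjusted p = 0.0879) to 0.53 after the correction (adjusted p = 0.0160), while with library-total scaling it was called lower (-0.48, adjusted p = 0.0144). Its paralog *Gstp2* had 290 and 283 in WT and 174 and 162 in *Bmal1* cKO (-0.77, standard error 0.15, limma adjusted p = 0.00893). That call was lost after the correction (-0.09) and without *Bmal1* cKO replicate 2 (-0.72), WT replicate 1 (-0.75) or WT replicate 2 (-0.78), and 54.3% of the words of *Gstp2* occur in other genes, chiefly *Gstp1*.

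The GST genes called higher were *Gstt3*, *Gstm3* and *Gstk1*. *Gstt3*, a theta-class enzyme, had 373 and 446 normalized counts in WT and 903 and 931 in *Bmal1* cKO, tight within each group and well apart, and rose by 1.17 on the log2 scale (standard error 0.13, limma adjusted p = 0.00131) and 1.44 after the correction (adjusted p = 0.00348). *Gstm3* had 121 and 137 in WT and 207 and 331 in *Bmal1* cKO (1.02, standard error 0.27, limma adjusted p = 0.0231, and 1.49 after the correction, adjusted p = 0.0117), and its call was lost without *Bmal1* cKO replicate 2 (0.68), WT replicate 1 (0.93) or WT replicate 2 (1.11). *Gstk1*, the kappa-class enzyme of mitochondria and peroxisomes, had 346 and 264 in WT and 540 and 481 in *Bmal1* cKO. It was called higher (0.75, standard error 0.17, limma adjusted p = 0.0147, and 0.92 after the correction, adjusted p = 0.0180), a call that was lost with library-total scaling (0.53) and without *Bmal1* cKO replicate 1 (0.67), *Bmal1* cKO replicate 2 (0.84) or WT replicate 2 (0.56). Of the words of *Gstm3*, 28.8% occur in other genes, and 12.5% of those of *Gstt3*. All 7 Gstm genes had a positive log2 fold change, between 0.18 and 1.02 and with a median of 0.27 (0.80 after the correction), beside 6828 of all 13983 genes. Only *Gstm3* passed the test, against 29.0% of all genes called higher (16.9% after the correction).

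Members called higher and lower differed in base composition but overlapped in it. Of the 17 called higher, 13 had a GC content below the median of all tested genes, 49.5%, while the other 4 (*Cyp4f40*, *Gstk1*, *Gstm3* and *Gstt3*) and all 6 called lower lay above it. Over all genes, the lowest decile by GC content (25.6% to 41.2%) had a median log2 fold change of 1.13 and 71.2% called higher, and the highest decile (57.6% to 74.2%) a median of -1.35 and 75.6% called lower. UGT genes had a median GC content of 39.9% and SULT genes of 43.0%, against 51.2% for CYP, 48.2% for CES and 52.0% for GST genes. In the correction 13 of the 23 calls held, 9 higher and 4 lower, and 3 members were called only after it, *Cyp2s1* (1.27, adjusted p = 0.0362) and *Gstp1* (0.53, adjusted p = 0.0160) higher and *Ces2b* lower (-1.44, adjusted p = 0.0405). GC content differs between the classes, so an effect on a class and an effect of GC content cannot be told apart from these libraries alone.

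**Figure D4:**
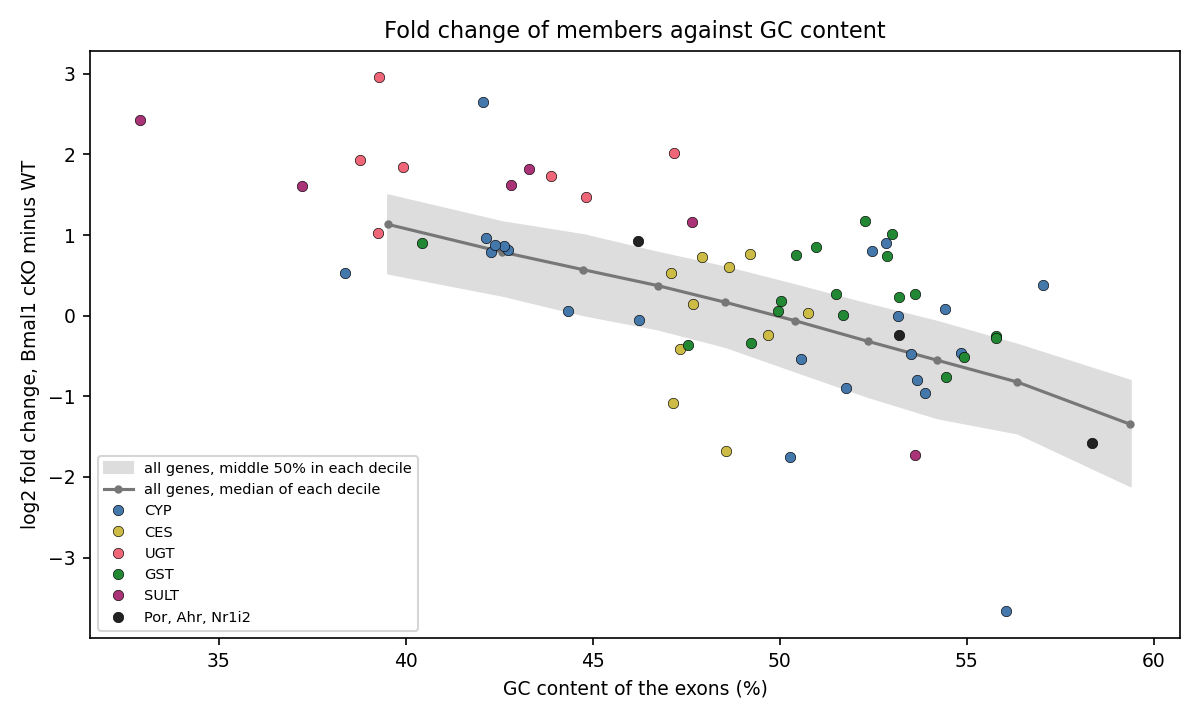
Log2 fold change (*Bmal1* cKO minus WT, y axis) of the 66 tested members against the GC content of their exons (%, x axis), colored by class. The grey line and band give the median and the middle 50% of all genes tested in each decile by GC content, with medians from 1.13 to -1.35. *Ugt2b35* and *Sult1d1* lie over the band and *Cyp4f18* lies under it.

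**Figure D5:**
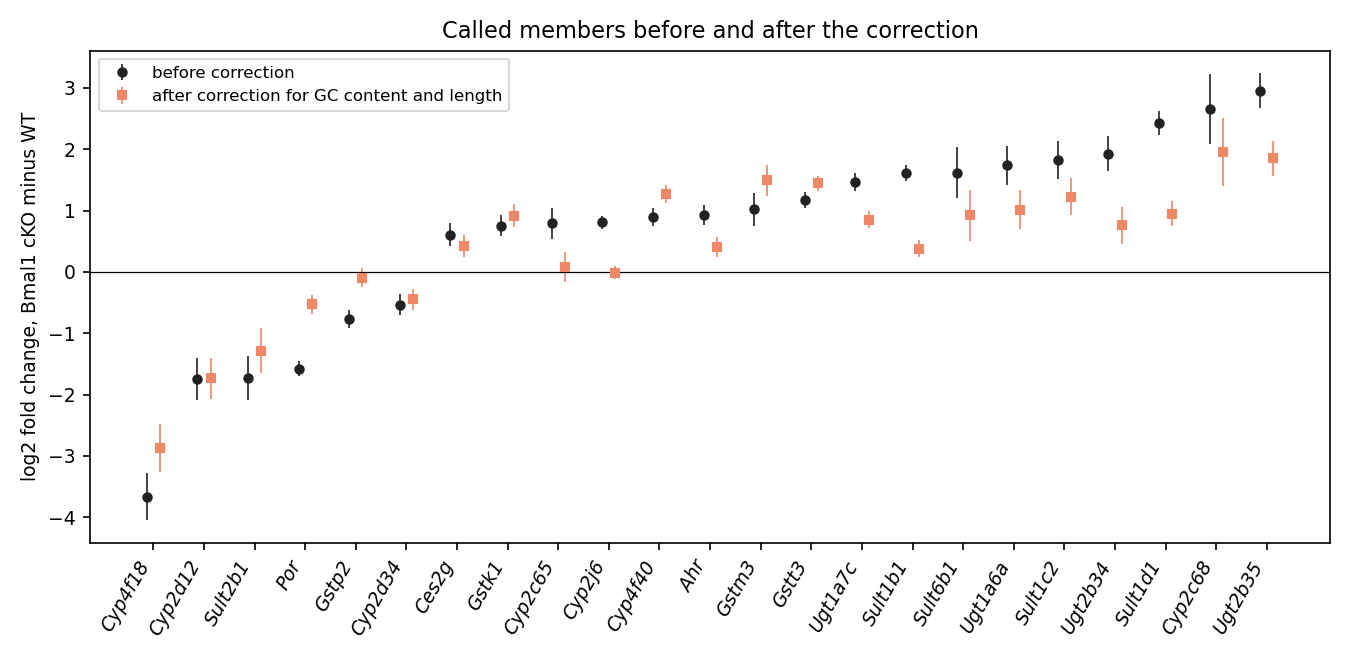
Log2 fold change (y axis, bars of 1 standard error) of the 23 called members (x axis) before (black circles) and after (orange squares) the correction for GC content and length. *Sult1b1* moves from 1.61 to 0.38 and *Por* from -1.58 to -0.53, while *Gstt3* moves from 1.17 to 1.44.

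The members under the filter, with a mean normalized count under 10, were *Cyp1b1*, *Cyp2c69*, *Cyp2d11*, *Cyp2f2*, *Cyp2t4*, *Ces1c*, *Gsto2* and *Sult4a1*. They were not tested, and none of them exceeded 20.3 normalized counts in any library. Tested members that were not called numbered 43.

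Genes that work alongside these enzymes moved in both directions. In the list of other phase I oxidoreductases and hydrolases, 13 of 32 tested genes were higher and 6 lower (8 and 5 after the correction), against 29.0% and 27.7% of all genes (16.9% and 18.0%). *Cyb5b*, an electron carrier of the outer mitochondrial membrane, rose from 3949 and 4983 normalized counts in WT to 8811 and 9002 in *Bmal1* cKO (1.01, limma adjusted p = 0.00261), and the ketone and steroid reductases *Akr1c12* (1.26, adjusted p = 0.000780) and *Akr1c13* (1.28, adjusted p = 0.00158) rose too. *Aldh2*, the mitochondrial acetaldehyde dehydrogenase, fell from 2973 and 3249 to 1029 and 1322 (-1.41, limma adjusted p = 0.00109), as did *Cyb5r3*, which reduces cytochrome b5 (-1.03, adjusted p = 0.00218), and the retinal dehydrogenase *Aldh1a3* (-1.25, adjusted p = 0.0489). Of these 6 genes, *Cyb5r3* (-0.36) and *Aldh1a3* (-1.31) were no longer called after the correction.

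In the list of other conjugating enzymes and of the supply of their cofactors, 11 of 24 genes were higher and 3 lower (7 and 4 after the correction), beside the same shares of all genes. *Ugp2*, which makes UDP-glucose, went from 1963 and 2404 normalized counts in WT to 5945 and 6579 in *Bmal1* cKO (1.53, limma adjusted p = 0.000728, but 0.41 and adjusted p = 0.0619 after the correction), and *Papss2*, which makes the sulfate donor PAPS, from 2028 and 2607 to 4648 and 4755 (1.03, adjusted p = 0.00249, and 0.52 after the correction, adjusted p = 0.0350). *Gclm*, a subunit of the enzyme that limits glutathione synthesis, rose from 2005 and 1810 to 5005 and 4511 (1.32, limma adjusted p = 0.000644, and 0.39 after the correction, adjusted p = 0.0412). Among the genes called lower were the microsomal transferase *Mgst3* (-0.72, limma adjusted p = 0.00708) and the thiosulfate sulfurtransferase *Tst* (-0.62, adjusted p = 0.0411), the latter not after the correction (-0.25).

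Transporters that export the conjugates and take up drugs were 3 higher and 5 lower of 18 (5 and 5 after the correction), against 29.0% and 27.7% of all genes (16.9% and 18.0%). *Abcg2*, the apical exporter of sulfate and glucuronide conjugates, rose from 674 and 1027 normalized counts in WT to 3619 and 3359 in *Bmal1* cKO (2.07, standard error 0.21, limma adjusted p = 0.00103, and 0.89 after the correction, adjusted p = 0.0300), the basolateral exporter *Abcc3* by 0.42 (adjusted p = 0.0108) and the carnitine carrier *Slc22a5* by 0.56 (adjusted p = 0.0162). *Abcc1* (-0.55, limma adjusted p = 0.00814) and the nucleoside carriers *Slc29a1* (-1.73, adjusted p = 0.00102) and *Slc28a2* (-2.30, adjusted p = 0.00392) were lower. All 6 kept their call after the correction.

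Partners of AHR and the nuclear receptors were 7 higher and 9 lower of 23 (4 and 2 after the correction), against 29.0% and 27.7% of all genes (16.9% and 18.0%). The glucocorticoid receptor *Nr3c1* rose from 996 and 930 normalized counts in WT to 2560 and 2987 in *Bmal1* cKO (1.52, limma adjusted p = 0.000559, and 0.59 after the correction, adjusted p = 0.0139). The AHR chaperone *Ptges3* (0.84, limma adjusted p = 0.00278) and the coactivator *Ncoa2* (0.41, adjusted p = 0.0201) were higher and the intestinal factor *Cdx2* (-1.47, adjusted p = 0.00301), the small Maf protein *Mafg* (-0.49, adjusted p = 0.0157) and the retinoid X receptor *Rxra* (-0.48, adjusted p = 0.0309) lower. None of these 5 was called after the correction, when *Mafg* stood at 0.11 and *Rxra* at 0.42. *Arnt*, the partner of AHR, had 720 and 700 normalized counts in WT and 870 and 720 in *Bmal1* cKO and was not called (0.16, limma adjusted p = 0.320).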

How the data were processed

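Colonic epithelium of 2 WT and 2 *Bmal1* cKO mice was sequenced in bulk. Reads were aligned by the authors with STAR to GRCm38 and normalized with DESeq2, and the counter and the annotation are not given in the sources used here. The per-library values and their mean that the authors deposited are a signal, gene counts divided by a size factor, listed for 16015 genes. The deposited log2 fold change of the authors, its standard error, the Wald statistic and the p-value columns hold their own comparison and were not used. In every library 100% of the values were whole multiples of 1 read within 0.01 read, so reads were recovered from them, 10312791 to 14156639 per library. Replicates differed by more than sampling noise.

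Values were taken to log2(value + 1), which understates changes of low genes, and genes with a mean of at least 10 were tested with limma 3.58.1 (trend, two-sided, Benjamini-Hochberg over 13983 genes, threshold 0.05). Exact permutation with 2 against 2 mice cannot reach 0.05. Members, gene lists and classes were chosen with earlier results of these data known. Named were *Por*, *Ahr*, *Nr1i2*, the 4 most abundant members per kilobase of each class, up to 4 called members of each direction and class whose groups did not overlap, members under the filter, and up to 3 called genes of each list and direction by level. *Ythdc1*, *Uba6*, *Cenpc1*, *Stap1*, *Utp3*, *Jchain*, *Rufy3*, *Arnt*, *Cyp3a13*, *Cyp4v3*, the marker genes, *Cyp2s1*, *Ces2b*, *Ugt1a1*, *Ugt2b36* and the genes of the closing section were named after their values were seen. The correction was a loess fit (span 0.3) of each library on GC content and exon length (GENCODE M21, GRCm38; 16008 genes matched), centred on each library's median. Reads were also tested with edgeR 4.0.16 and DESeq2 1.42.0. Uniqueness was judged by 50-base words shared between transcripts. Start regions came from RefSeq (GRCm38.p6). Only the limma test and the correction were run on simulated counts, with far fewer changed genes than were called in these data. The other steps were not. The values of 1 listed gene are not reported here. P-values measure the spread between these mice only.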

Additional observations from a re-analysis of the deposited data

How the results depend on the processing

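Counts of calls moved with the processing as follows. With library-total scaling, which shifts the median of all genes by -0.22, 12 members were lower (CYP 5, CES 1, GST 3) and CES had 0 higher. The correction for GC content and length left 11 members higher (UGT 2, SULT 2, CES 0) and CES 1 lower, GST 0 lower. Joined with a replicate block it gave 11 members higher (SULT 1, CES 0), CES 1 lower and GST 0 lower. DESeq2 gave CES 1 lower and 0 higher. In fits without 1 library, in which the lone mouse is assumed to vary like the other group, members lower ranged from 3 to 8 and higher from 8 to 18. By class, such fits gave CYP 1 to 5 lower and 2 to 7 higher, CES 0 to 1 lower and 0 higher, GST 0 to 1 lower and 1 to 3 higher, SULT 0 to 1 lower, and UGT 2 to 5 higher. Fold changes that were called in at least 1 of the fits compared and reversed were those of *Cyp2j6* (-0.0099) and *Gstp1* (0.53), under the correction with and without the block. The cause was not tested. TMM scaling, other pseudocounts and filters, edgeR and DESeq2 left 16 to 18 members higher and 6 to 7 lower. Of 523 values for 35 named members, 455 stayed on their side of the threshold, 55 lost the call, 9 gained it and 4 reversed. Of the 455, 17 had the other sign, in 7 members not called in either fit (*Nr1i2*, *Cyp4f14*, *Ces2e*, *Ces2c*, *Ces2a*, *Gsto1* and *Gstm1*). All-gene calls fell from 4059 higher and 3871 lower to 2367 and 2522 under the correction. The mouse numbers are only names (correlation of same-numbered deviations -0.09), and the replicate block gave 20 members higher and 6 lower, with *Cyp2c55* (adjusted p = 0.0020), *Cyp3a13* (0.0345) and *Sult1a1* (0.0359) gained by limma.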

Other observations

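A few genes with roles next to these enzymes stood out after their values were seen. *Ugdh*, which turns UDP-glucose into the UDP-glucuronic acid that UGT enzymes use, had 1245 and 1597 normalized counts in WT and 4502 and 5880 in *Bmal1* cKO (log2 fold change 1.87, limma adjusted p = 0.000964, and 1.01 after correcting for GC content, adjusted p = 0.0121). *Nqo1*, a quinone reductase induced by AHR and NRF2, had 268 and 213 in WT and 639 and 642 in *Bmal1* cKO (1.42, limma adjusted p = 0.00127, and 1.20 after the correction). From the list of AHR partners, *Tiparp* was not called (-0.02, limma adjusted p = 0.962) and was lower after the correction (-1.05, adjusted p = 0.0292). *Ahrr* was under the filter. The NRF2 gene *Nfe2l2* was not called (0.09, limma adjusted p = 0.479). *Ephx1*, the microsomal epoxide hydrolase, was lower, at 422 and 490 in WT and 94.6 and 103 in *Bmal1* cKO (-2.19, limma adjusted p = 0.000590, and -1.77 after the correction). *Hnf4g*, a nuclear receptor of enterocytes, had 192 and 202 in WT and 1027 and 1012 in *Bmal1* cKO (2.37, limma adjusted p = 0.000533, and 1.47 after the correction), while *Hnf4a* was not called (-0.27, adjusted p = 0.211). The 2 groups did not overlap for *Ugdh*, *Nqo1*, *Ephx1* and *Hnf4g*. They did not overlap for *Hnf4a* either (0.17 after the correction), so a lack of overlap did not set called genes apart. Of all genes tested, 29.0% were called higher and 27.7% lower.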
